A study of Mus musculus with 2 samples.

Results

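The peaks described here are DNase I hypersensitive sites at the 3′ ends of protein-coding genes in embryonic mouse neural tube. A peak on chromosomes 1 to 19 was included when its centre lay within 500 bp of the annotated end of a protein-coding gene, in no coding sequence, and more than 2 kb from every annotated transcription start site (TSS) of a gene of any kind. Replicate 1 held 1472 such peaks among 194486 on these chromosomes, a share of 0.757%. Replicate 2 held 1135 among 150286, a share of 0.755%. A peak was 150 bp long and was assigned to the nearest gene end. These exclusions removed about as many peaks as they kept. Of 2924 peaks centred within 500 bp of an end in replicate 1, 320 lay in coding sequence and another 1132 lay within 2 kb of a TSS. In replicate 2 these numbers were 330 and 937 of 2402.

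The study mapped open chromatin by DNase-seq, in which DNase I cuts accessible DNA in nuclei and the cut ends are sequenced. Per the labels, the neural tube came from B6NCrl embryos at 11.5 days, with male and female embryos pooled. There was 1 group, without treatment or mutation, and its 2 biological replicates came from different tissue samples under a shared donor label. With 2 libraries and no second group, no test across samples was possible, so each value is given for both libraries and the spread shown may be technical. The label was checked by promoter peaks, those that overlap the 500 bp to either side of a TSS of the gene, beside the 68.9% of 20807 genes that had one in both libraries. All 22 neural progenitor genes on these chromosomes had one, as did 18 of 19 ventral patterning genes. So did 24 of 24 housekeeping genes, 18 of 19 neural crest and 20 of 24 mesoderm genes, so these counts do not single out the neural tube. Endothelial genes, at 10 of 17, and blood and immune genes, at 6 of 19, had smaller shares than all genes. The cell type behind a peak at a gene end was not tested.

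The 3′ end of a coding gene is where the transcript is cut and given its poly(A) tail, a short way past the hexamer AATAAA or a variant of it. RNA polymerase II transcribes on past that point before it leaves the template. Open chromatin near gene ends can belong to enhancers, to insulator sites or to starts that the annotation lacks, and the peak lists do not separate these. CTCF is a zinc finger protein that binds a long GC-rich motif at insulators and at the anchors of chromatin loops.

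Peaks with the core of the CTCF motif were found in both libraries more often than other peaks at gene ends, so the strongest of them are shown first. They are the 4 with the highest mean score rank over both libraries that lay past the gene end and overlapped no exon. Each is the peak of replicate 1, in mm10 coordinates, from the GRCm38.p6 sequence of RefSeq, on the strand that reads the core, 5′ to 3′, with the core in capitals. The Acvrl1 peak lay at chr15:101145556-101145705 and is shown on the minus strand. The Ripor1 peak lay at chr8:105622476-105622625 and is shown on the plus strand. The Ebf1 peak lay at chr11:45008216-45008365 and is shown on the minus strand. The Rap1gap peak lay at chr4:137730236-137730385 and is shown on the plus strand.
Acvrl1: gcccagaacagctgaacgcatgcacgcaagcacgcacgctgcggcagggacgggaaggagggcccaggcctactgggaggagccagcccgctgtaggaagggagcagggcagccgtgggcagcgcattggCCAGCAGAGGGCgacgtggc
Ripor1: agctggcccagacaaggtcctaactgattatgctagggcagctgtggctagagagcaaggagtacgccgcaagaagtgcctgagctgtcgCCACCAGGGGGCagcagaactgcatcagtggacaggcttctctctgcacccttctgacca
Ebf1: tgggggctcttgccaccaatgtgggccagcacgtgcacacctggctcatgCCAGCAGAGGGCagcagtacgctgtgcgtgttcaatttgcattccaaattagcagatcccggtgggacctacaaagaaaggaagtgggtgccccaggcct
Rap1gap: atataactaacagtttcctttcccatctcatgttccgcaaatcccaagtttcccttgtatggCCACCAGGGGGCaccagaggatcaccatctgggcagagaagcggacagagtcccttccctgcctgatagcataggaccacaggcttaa
Acvrl1 encodes a receptor for bone morphogenetic proteins in endothelium, and its peak was centred 295 bp past the gene end. Ebf1, a transcription factor of differentiating neurons, had its peak 200 bp past the end. The peak of Ripor1, a regulator of cell polarity, was 332 bp past the end. The peak of Rap1gap, which inactivates the small GTPase Rap1, was 450 bp past the end. The deposited scores of these 4 peaks were 131, 116, 115 and 99 in replicate 1, in the order in which the sequences are printed. In replicate 2 they were 113, 102, 68 and 81. The GC content of the windows ran from 51.3% for Rap1gap to 70.0% for Acvrl1.

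Taken whole, the windows at gene ends showed no detectable excess of peaks over the sequence just past them, while their sides differed. Windows at gene ends held 104 peaks per Mb in replicate 1, against 103 per Mb in the sequence from 0.5 to 5 kb past an end. In replicate 2 the windows held 80.3 per Mb, against 81.9 per Mb further past. Both densities were taken over eligible sequence, which lies outside coding sequence and more than 2 kb from every TSS, and each base was counted once. The ratio was 1.01 (95% interval 0.953 to 1.07) in replicate 1 and 0.980 (0.918 to 1.05) in replicate 2, with a mean of 0.994 ± 0.0202 (SD, n = 2). The side past the end alone lay above the sequence further past, at 1.12 (1.04 to 1.21) and 1.09 (1.01 to 1.18), and the side inside the gene below it, at 0.879 and 0.853. The ratio also moved with the window, to 0.870 and 0.822 within 250 bp of the end and 1.08 and 1.04 within 1 kb. Intervals here and below are exact binomial intervals that cover counting error only. They take peaks as independent, although 134 of the 1472 peaks at ends in replicate 1 and 133 of the 1135 in replicate 2 overlapped another of their own list.

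Gene ends and their surroundings were, however, richer in peaks than distal sequence as a whole. The eligible windows added up to 14.1 Mb, or 0.673% of the 2101.5 Mb of eligible sequence. They held 1.14% of distal peaks in replicate 1 and 1.21% in replicate 2, where distal means centred in eligible sequence. The density at ends was 1.69 times that of all eligible sequence in replicate 1 (1.60 to 1.78) and 1.80 times in replicate 2 (1.69 to 1.91). The sequence from 0.5 to 5 kb past the ends had ratios of 1.67 and 1.83 to the same sequence. Against sequence from 5 kb to 500 bp inside the gene, the windows were 1.25 times as dense in replicate 1 (1.17 to 1.32) and 1.19 times in replicate 2 (1.11 to 1.27).

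Within the windows the peaks were unevenly placed. The side past the end held 116 peaks per Mb in replicate 1, against 90.7 per Mb on the side inside the gene, where a base past 1 end and inside another counted as past. The same sides held 89.4 and 69.8 per Mb in replicate 2. The ratio of past to inside was 1.28 in both libraries, with intervals of 1.15 to 1.42 in replicate 1 and 1.14 to 1.44 in replicate 2, and an SD of 0.0021 between the libraries. In steps of 250 bp from 5 kb inside to 5 kb past, the density was highest 250 to 500 bp past the end. That step held 131 per Mb in replicate 1 and 104 per Mb in replicate 2. It was no separate summit, as the step from 750 to 1000 bp past held 130 and 98.8 per Mb. From 1250 to 1500 bp past the density was still 119 and 96.9 per Mb, and from 4750 to 5000 bp past it was 88.0 and 75.4 per Mb. The last 250 bp inside the gene held 74.4 and 56.1 per Mb. The 250 bp before that held 118 and 95.4 per Mb. Steps further inside the gene were as low in replicate 1, for example 72.5 per Mb from 2500 to 2250 bp inside. In this profile a peak near several ends counted at each of them.

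**Figure D1:**
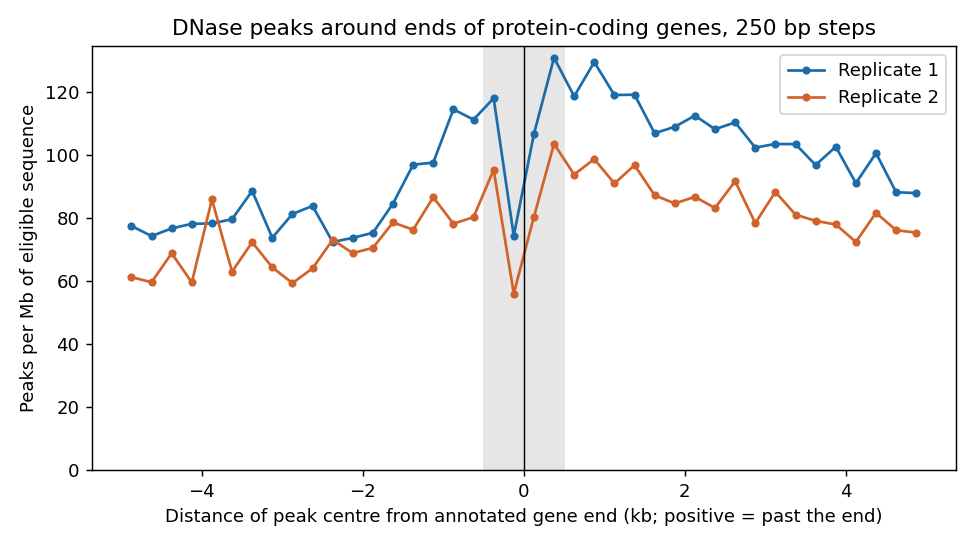
Peaks per Mb of eligible sequence (vertical axis) by distance of the peak centre from the annotated gene end in kb (horizontal axis, positive past the end), in steps of 250 bp for both libraries, with the 500 bp windows in grey. Both curves drop in the last 250 bp inside the gene, to 74.4 and 56.1 per Mb, and reach 131 and 104 per Mb 250 to 500 bp past the end. They are close to that at 750 to 1000 bp past, with 130 and 98.8 per Mb.

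In finer steps the lowest density fell on the end itself. The last 50 bp of the gene held 31 peak centres in replicate 1 and 18 in replicate 2, which made 41.8 and 24.3 per Mb. GC content had its minimum in the same step, at 32.1%, against 44.2% in the step from 950 to 1000 bp inside the gene and 44.5% in that from 950 to 1000 bp past it. By 100 to 150 bp past the end, GC content was 44.9% and density was 117 per Mb in replicate 1 and 89.5 per Mb in replicate 2. Peak density and GC content of the sequence thus had their lowest points in the same 50 bp.

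**Figure D2:**
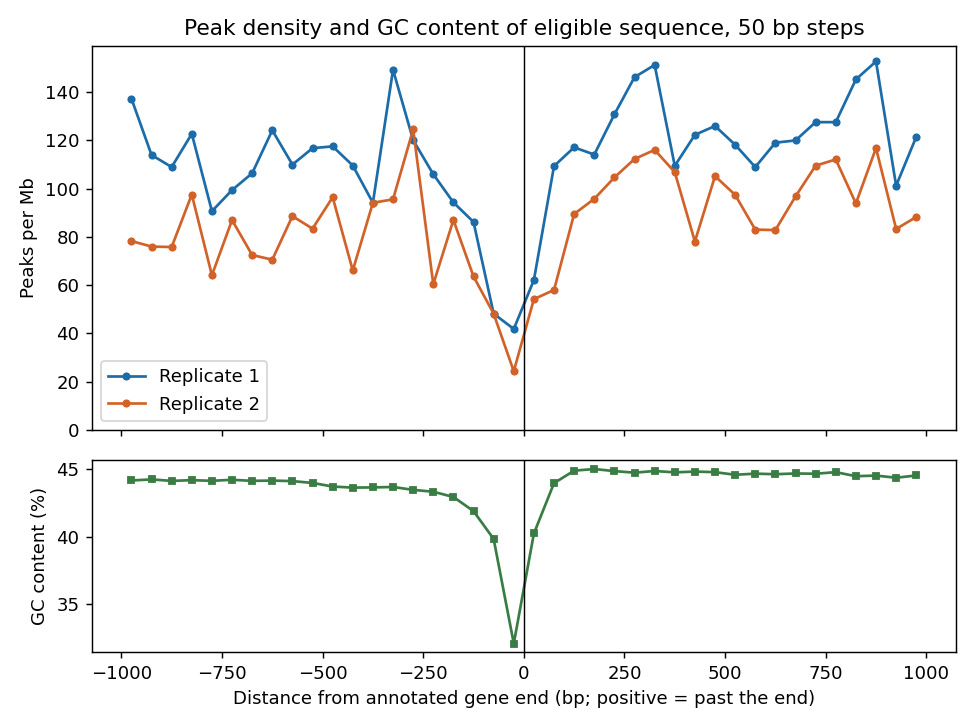
Upper panel, peaks per Mb of eligible sequence in both libraries; lower panel, GC content of that sequence in percent; both against distance from the annotated gene end in bp, in steps of 50 bp. The lowest step is the last 50 bp of the gene in both panels, with 41.8 and 24.3 peaks per Mb at 32.1% GC.

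Peak density climbed steeply with GC content, in every zone of the windows and past them except the last 100 bp of the gene in replicate 2, where it was 235 per Mb at 50 to 55% GC and 177 per Mb above. Past the ends, from 0.5 to 5 kb, positions whose surrounding 150 bp had less than 40% GC held 14.3 peaks per Mb in replicate 1 and 3.34 in replicate 2. Positions with 55% GC or more held 402 and 417 per Mb. The same rise was present 250 to 500 bp past the end, where density was 14.0 per Mb under 40% GC and 444 per Mb from 55% upward in replicate 1. In replicate 2 that zone held no peak in 1.00 Mb under 40% GC, with an exact interval of 0 to 3.69 per Mb, and 490 per Mb from 55% upward. The last 100 bp inside the gene had a mean window GC of 37.9%, against 43.98% for the sequence 0.5 to 5 kb past.

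Weighting to equal GC content brought the density of the last 100 bp closer to that of the sequence past the end. As measured, those 100 bp held 45.5 and 36.0 peaks per Mb, or 0.441 and 0.440 times the density 0.5 to 5 kb past. With each zone weighted to the GC classes of the sequence further past, the ratio was 0.815 in replicate 1 and 0.901 in replicate 2. For the zone 250 to 500 bp past the end, the ratio was 1.22 and 1.21 as measured, and 1.10 and 1.05 at equal GC. The zone 250 to 100 bp inside the gene was below 1 at equal GC too, at 0.947 and 0.835. These weighted ratios rest on few peaks in places, for example 15 and 7 peaks in the last 100 bp at 55% GC or more. The part of GC content in these densities was not tested beyond this weighting.

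**Figure D3:**
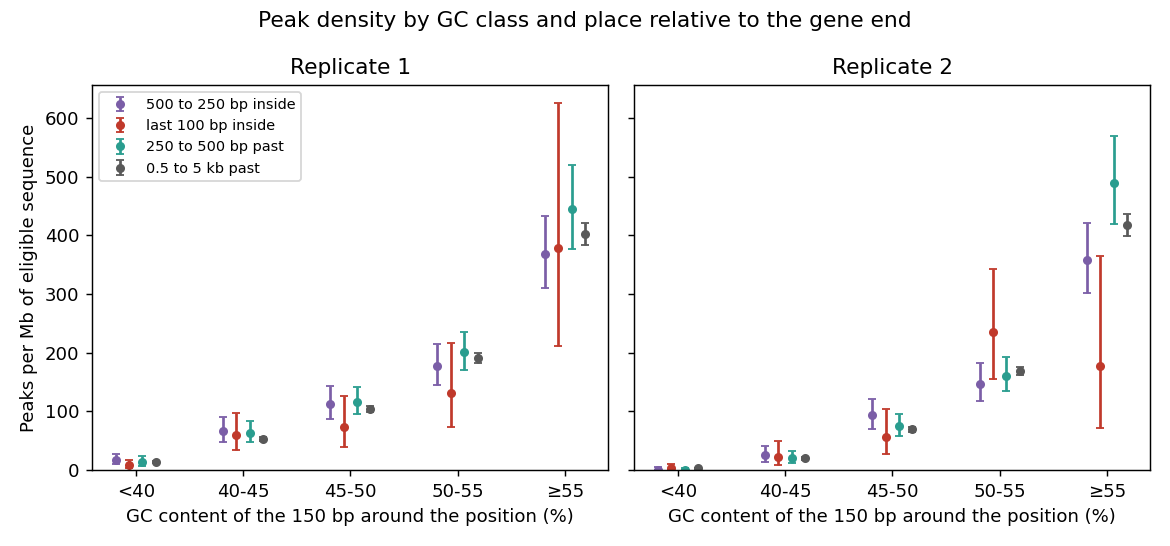
Peaks per Mb of eligible sequence (vertical axis) by GC content of the 150 bp around the position (horizontal axis, percent), for 3 zones at the gene end and the sequence 0.5 to 5 kb past it, 1 panel for each library. Bars are exact 95% intervals of counting; density runs from 14.3 to 402 per Mb past the ends in replicate 1 and from 3.34 to 417 per Mb in replicate 2, and the widest gap between zones is at 55% GC or more in replicate 2, where the last 100 bp held 177 per Mb on 7 peaks.

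The annotation at the centres of the peaks was near to that of the eligible sequence, with somewhat fewer in untranslated regions. In replicate 1, 591 peaks (40.1%, 37.6 to 42.7) were centred in an untranslated region of a coding gene and 726 (49.3%) lay outside genes. In replicate 2 there were 454 (37.1 to 42.9%) in untranslated regions and 554 (48.8%) outside genes. Untranslated regions made up 44.7% of the eligible window sequence, and sequence outside genes 44.5%. Introns held 130 and 105 peaks, and other exons of coding genes 17 and 16. Exons of non-coding genes alone held 8 and 6.

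Density at ends also varied with the kind of gene. At ends of genes with a promoter peak in both libraries there were 126 peaks per Mb in replicate 1 and 94.5 in replicate 2, against 130 and 103 per Mb 0.5 to 5 kb past the same ends. At ends of genes with a promoter peak in neither library there were 50.2 and 43.8 per Mb, against 49.5 and 40.7 further past. Genes with open promoters thus had the denser ends and also the denser sequence past them. Their ratio of ends to sequence past them was 0.971 (0.913 to 1.03) in replicate 1 and 0.921 (0.858 to 0.988) in replicate 2. For genes with a promoter peak in neither library it was 1.01 (0.860 to 1.19) and 1.08 (0.901 to 1.28).

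Ends that face the end of a gene on the other strand within 2 kb, called tail-to-tail, were denser per Mb. The windows of facing ends can overlap, with each base counted once. The sequence past such an end can lie inside the facing gene, so it is not the same kind of reference as for other ends. They held 141 and 114 peaks per Mb, against 111 and 96.3 per Mb past them, with ratios of 1.27 (1.09 to 1.47) in replicate 1 and 1.18 (0.999 to 1.39) in replicate 2. Other ends held 99.3 and 75.9 per Mb, with ratios to the sequence past them of 0.967 and 0.941. Tail-to-tail ends accounted for 230 peaks (15.6%) in replicate 1 and 186 (16.4%) in replicate 2, against 15.0% of all eligible ends. Gene length showed a similar gradient. Ends of genes up to 12.0 kb long held 131 and 102 per Mb, with ratios of 1.25 (1.14 to 1.37) and 1.16 (1.05 to 1.29) to the sequence past them. Ends of genes over 38.5 kb held 87.4 and 64.2 per Mb, with ratios of 0.865 (0.779 to 0.958) and 0.895 (0.792 to 1.01).

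Peaks at gene ends were of middling strength. The deposited score was used only as a percentile rank within its own list, because the sources used here do not define it. The median percentile of peaks at ends was 53.3 in replicate 1, against 52.1 for peaks 0.5 to 5 kb past an end and 42.1 for other distal peaks. In replicate 2 it was 48.8, against 50.8 and 42.2. The difference from the peaks further past changed sign between the libraries, while both groups ranked above other distal peaks in each. Very strong peaks were scarce at ends: 66 (4.48%, 3.48 to 5.67) in replicate 1 and 38 (3.35%, 2.38 to 4.57) in replicate 2 were in the top 10% of their list. The share was 5.83% and 4.08% for peaks further past, and 2.80% and 1.81% for other distal peaks. Those within 50 bp inside the 500 bp limit, 167 and 134 peaks, had medians of 53.3 and 54.4. The 154 and 117 peaks within 50 bp beyond it had medians of 52.1 and 56.0.

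Peaks at gene ends were found again in the other library about as often as all peaks and as peaks further past the ends. In replicate 1, 755 of 1472 (51.3%, 48.7 to 53.9) overlapped a peak of replicate 2 by at least 1 bp, against 52.7% of all peaks on these chromosomes. In replicate 2, 768 of 1135 (67.7%, 64.9 to 70.4) overlapped a peak of replicate 1, against 69.4% of all peaks. The shares were 53.2% and 68.3% for peaks 0.5 to 5 kb past an end, within the intervals of the peaks at ends. For other distal peaks they were 47.1%, below the interval in replicate 1, and 66.3%, inside that in replicate 2. Both directions describe 1 pair of libraries, and the shorter list of replicate 2 sets part of the gap between them. With hotspots of the other library, which are broader regions of enrichment, counted as well, 55.2% and 76.6% of the peaks at ends were found again, against 57.1% and 79.7% of all peaks and 56.7% and 76.3% of those 0.5 to 5 kb past an end.

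Sharing climbed with score. In the lowest score decile, 6 of 109 peaks at ends in replicate 1 and 7 of 102 in replicate 2 were shared. All peaks of that decile on these chromosomes were shared at 8.32% and 10.5%. In the highest decile, 65 of 66 and 38 of 38 were shared, against 95.9% and 97.2% of all peaks. Other distal peaks with the same distribution over score deciles would be shared at 55.8% and 72.1%, above the observed 51.3% and 67.7%. The peaks further past the ends also lay below that rate, at 53.2% against 55.2% and 68.3% against 71.2%. In replicate 1 the shared peaks at ends had a median percentile of 70.6, against 32.9 for those not shared; in replicate 2 the medians were 61.5 and 21.9. The single peak at an end in the top 10% of its list that was not shared lay 150 bp past the end of Lag3, an immune checkpoint receptor, with a score of 121 in replicate 1. It lay in a hotspot of replicate 2.

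**Figure D4:**
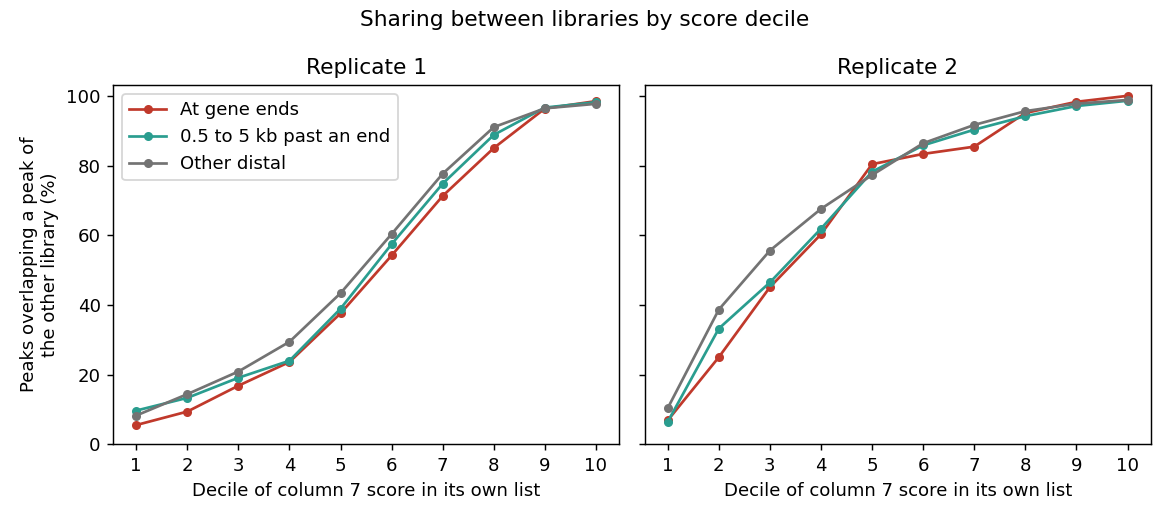
Share of peaks that overlap a peak of the other library (vertical axis, percent) by decile of the deposited score within each list (horizontal axis, 1 lowest, 10 highest), for peaks at gene ends, peaks 0.5 to 5 kb past an end and other distal peaks, 1 panel for each library. All curves climb together; peaks at ends run from 6 of 109 to 65 of 66 in replicate 1 and from 7 of 102 to 38 of 38 in replicate 2.

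The sequence under the peaks was GC-rich for its place. The mean GC content was 51.9% in replicate 1 and 54.2% in replicate 2, against 51.5% and 53.5% for peaks 0.5 to 5 kb past an end and 49.6% and 52.3% for other distal peaks. Windows of 150 bp at gene ends with no peak in either library averaged 42.9%. A peak at an end held 3.05 CpG dinucleotides on average in replicate 1 and 3.63 in replicate 2, against 1.41 in windows without a peak. Shared peaks held more, 3.79 and 4.03, against 2.27 and 2.80 in those not shared. Sequence marked as repeats made up 12.1% and 10.3% of the bases of peaks at ends, against 23.5% of windows without a peak.

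The CTCF core was rare at gene ends without a peak and common under the peaks. It was present on either strand in 110 of 1472 peaks in replicate 1 (7.47%, 6.18 to 8.94) and 94 of 1135 in replicate 2 (8.28%, 6.74 to 10.04), against 60 of 83875 end windows without a peak (0.0715%). Peaks 0.5 to 5 kb past an end carried it at 7.94% and 9.01%, and other distal peaks at 4.51% and 5.24%. The core is itself GC-rich, and windows without a peak differed from the peaks in GC content, so their contrast was not tested apart from it. Peaks with the core were better shared: 94 of 110 in replicate 1 (85.5%, 77.5 to 91.5) and 93 of 94 in replicate 2 (98.9%, 94.2 to 99.97). They also ranked higher, with median percentiles of 78.6 and 75.7, against 50.9 and 46.8 for peaks without it. Up to the 50th percentile, 2 of 9 peaks at ends with the core were shared in replicate 1 and 13 of 14 in replicate 2. Over the score deciles of that range, all peaks at ends were shared at 5.50% to 37.6% and 6.86% to 80.4%. Above it and up to the 90th, 83 of 92 and 73 of 73 with the core were shared. All peaks at ends in those deciles were shared at 54.2% to 96.4% and 83.3% to 98.3%. Whether the core goes with sharing at equal rank was not tested. High sharing was not particular to ends: of peaks with the core 0.5 to 5 kb past an end, 468 of 522 and 462 of 470 were shared. Above the 50th percentile and up to the 90th, 92 of 719 peaks at ends in replicate 1 (12.8%) carried the core, against 13.5% of peaks further past and 8.86% of other distal peaks of that rank. In replicate 2 it was 73 of 529 (13.8%), against 14.9% and 10.4%. Among peaks with the core on a single strand, it read along the gene in 62 and against it in 47 in replicate 1 (56.9% along, 47.0 to 66.3). In replicate 2 it read along the gene in 55 and against it in 38 (59.1%, 48.5 to 69.2).

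The shares of other motifs were compared with peaks elsewhere and with end windows without a peak. The poly(A) signal AATAAA was present on either strand in 184 peaks in replicate 1 (12.5%, 10.9 to 14.3) and 129 in replicate 2 (11.4%), against 28.7% of end windows without a peak. Peaks further past the ends carried it at 8.63% and 5.94%, and other distal peaks at 11.7% and 8.10%. The hexamer GGGCGG, bound by SP and KLF factors, was present in 125 peaks of each library (8.49% and 11.01%), against 7.65% and 9.24% further past, 5.55% and 7.27% in other distal peaks, and 1.86% in end windows without a peak. The Hox-Pbx motif TGATTNAT was in 2.79% of peaks at ends in replicate 1 (2.01 to 3.76) and 1.76% in replicate 2 (1.08 to 2.71), below the 4.40% and 2.88% of other distal peaks. The homeodomain motif TAATTA was likewise lower, in 41 peaks (2.79%, 2.01 to 3.76) and 14 peaks (1.23%, 0.676 to 2.06), against 4.13% and 2.76%. Peaks 0.5 to 5 kb past an end carried the Hox-Pbx motif at 2.31% and 1.69% and TAATTA at 2.75% and 1.78%. End windows without a peak held the Hox-Pbx motif at 2.56%, inside the intervals of the peaks at ends, and TAATTA at 5.08%, above them. The SOX motif AACAAT was in 6.52% and 4.93% of peaks at ends, against 7.89% and 5.86% of other distal peaks, which lay within the intervals of 5.31 to 7.91% and 3.75 to 6.36%. The E-box CAGCTG, read by proneural factors, was in 14.2% and 15.0%, against 16.1% and 17.6%, at or just beyond the upper bounds of 16.1% and 17.2%. Peaks 0.5 to 5 kb past an end carried AACAAT at 6.25% and 4.30% and CAGCTG at 14.5% and 15.7%. These shares lay inside the intervals of the peaks at ends. End windows without a peak held AACAAT at 9.88%, above the peaks at ends, and CAGCTG at 6.60%, below them. A match is a description of the letters and not a bound site, and the part of GC content in these shares was not tested. The NRF1 motif GCGCATGCG was in no peak at an end in either library, with exact intervals of 0 to 0.250% and 0 to 0.324%. Peaks further past the ends carried it in 14 of 6572 (0.213%) and 14 of 5215 (0.268%), shares inside those intervals, so no difference was detectable.

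At the level of genes, 653 of 16501 genes with eligible sequence at their end (3.96%, 3.66 to 4.27) had an end peak in both libraries that overlapped, and 1417 (8.59%) had an end peak in either. The shared peaks formed 755 pairs in 697 separate regions. A single region was present at 610 of these genes and 2 regions at 42 genes. Only Mafa, a transcription factor of pancreatic beta cells and of sensory neurons, had 3. Pairs were well aligned, with a median shift of 20 bp between the libraries, and at 219 genes a pair had the same coordinates in both.

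Genes with a shared end peak more often had an open promoter. In replicate 1, 563 of 653 (86.2%, 83.3 to 88.8) had a peak within 500 bp of one of their own TSSs, against 71.9% of other genes with eligible ends. In replicate 2 it was 558 of 653 (85.5%, 82.5 to 88.1), against 71.0%. The surroundings of these genes were also denser in peaks. The median number of distal peaks within 50 kb of the end, those in the end window left out, was 8 in replicate 1, against 4 for other genes. In replicate 2 it was 6, against 3. The share of genes with a shared end peak climbed with this number, and by replicate 1 it was 1.37% at 0 to 2 surrounding peaks, 3.14% at 3 to 5, 4.69% at 6 to 10, 8.38% at 11 to 20 and 18.01% at 21 or more. By replicate 2 it climbed over the same classes, at 1.69%, 3.69%, 5.76%, 8.89% and 16.7%. With 11 to 20 surrounding peaks, the share was 8.52% at genes with an open promoter in both libraries and 7.69% at genes with one in neither, by the surroundings in replicate 1. With 21 or more it was 19.1% (53 of 277) and 3.85% (1 of 26, 0.0973 to 19.6%). With 0 to 2 it was 2.28% and 0.516%.

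Lists of genes for the cell types of the neural tube and its neighbours were compared by this share, beside 3.96% of all eligible genes. Spinal neuron class factors, which set the identity of interneurons and motor neurons, had a shared end peak at 10 of 33 genes (30.3%, 15.6 to 48.7). Forebrain and midbrain regulators had one at 8 of 21 (38.1%, 18.1 to 61.6). Both lists sit in dense surroundings, with medians of 17 and 11 distal peaks within 50 kb for the spinal factors in replicates 1 and 2 and 20 and 15 for the forebrain and midbrain regulators, against 5 and 3 over all eligible genes. All eligible genes in the same classes of surrounding density would give 10.7% and 8.36% for the spinal factors, and 11.5% and 9.29% for the forebrain and midbrain regulators. The counts of both lists lay above these shares. The classes took no account of gene length or promoter state, with which density at ends also varied. All genes with 21 or more surrounding peaks formed 1 class.

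Most other lists held 1 to 3 such genes. Shared end peaks were present at 2 of 27 genes of postmitotic neurons, 3 of 15 neural progenitor genes, 3 of 22 Hox genes, 1 of 17 ventral and 3 of 22 dorsal patterning genes. The Hox genes had the densest surroundings, with medians of 31 and 29.5 distal peaks, and their class share would be 15.3% and 14.4%, against an observed 13.6%. For the neural progenitor genes it would be 12.8% and 10.5%, against an observed 3 of 15 (4.33 to 48.1%). Among lists for other tissues, mesoderm and connective tissue had 5 of 24 (20.8%, 7.13 to 42.2), above the share of all eligible genes and above class shares of 7.79% and 6.74%, the higher of which lay inside the interval. Neural crest and peripheral glia had 2 of 15, endothelium 1 of 14, and blood and immune genes 1 of 11. Housekeeping genes had 1 of 17 and ribosomal protein genes 1 of 24. Zinc finger genes of the Zfp series had 5 of 335 (1.49%, 0.486 to 3.45), below class shares of 3.07% and 3.46%, the lower of which lay inside the interval. Olfactory receptor genes had 5 of 821 (0.609%, 0.198 to 1.42), and their surroundings were the sparsest, with a median of 0. Their class shares of 1.72% and 1.97% lay above that interval, but these were not matched for promoter state. Only 15 of 1128 genes of this family had a promoter peak in both libraries. Among all genes with 0 to 2 surrounding peaks and a promoter peak in neither library, the share was 0.516% by replicate 1 and 0.737% by replicate 2. Both lay inside the interval of the olfactory receptor genes. Clustered protocadherin genes had 2 of 50, Pcdhga3 and Pcdhga9, whose peaks lay close together. Ends of many genes in that cluster nearly coincide and a peak went to its nearest end only. That count thus depends on the assignment and is not comparable with the other lists. Histone genes had 0 of 13 (0 to 24.7%). A gene can stand in several lists, and lists of 11 to 33 genes leave wide intervals.

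**Figure D5:**
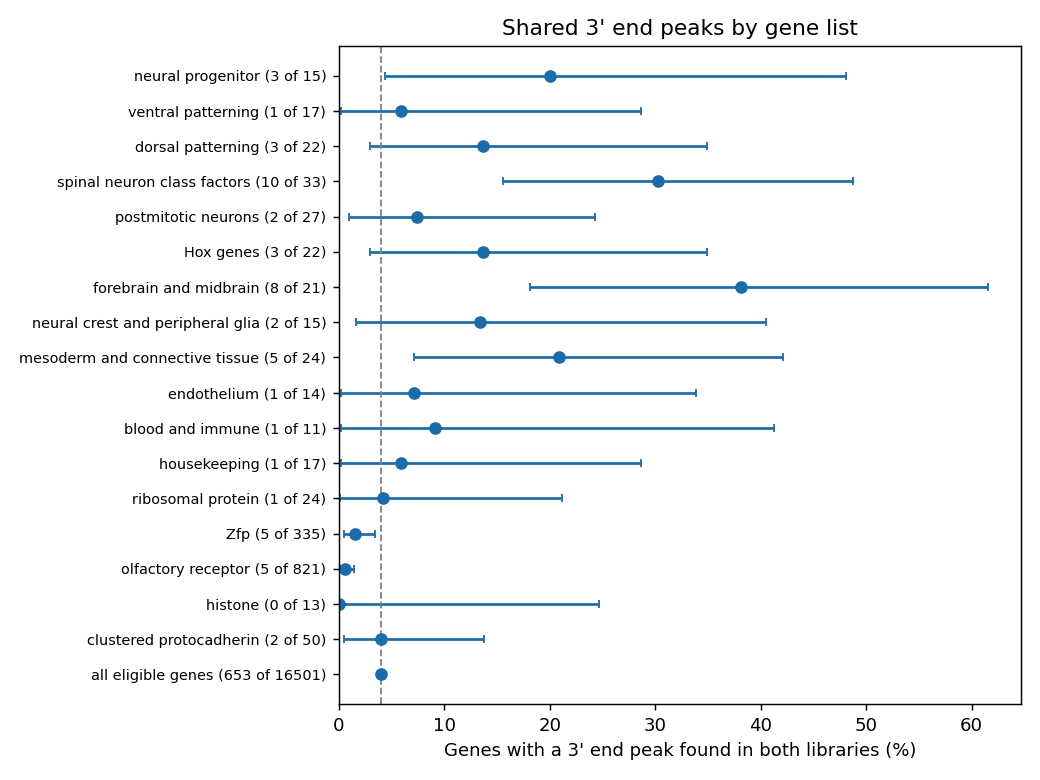
Share of genes with an end peak found in both libraries (horizontal axis, percent) for 17 gene lists and all eligible genes (vertical axis, with counts), with exact 95% intervals; the dashed line marks the 3.96% of all eligible genes. Forebrain and midbrain regulators (8 of 21) and spinal neuron class factors (10 of 33) stand farthest to the right, and olfactory receptors (5 of 821) lie left of the line.

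The strongest shared end peaks belonged to genes of mixed function. The highest mean rank was at 1700008O03Rik, in the untranslated region at chr7:44360076-44360225, with scores of 141 in replicate 1 and 116 in replicate 2 and percentiles of 99.1 and 96.4. Its peak was centred 108 bp inside the end in replicate 1 and overlapped coding sequence by 37 bases. At Fam120a, which encodes an RNA-binding protein, the peak at chr13:48878676-48878825 was the same in both libraries, outside genes and 468 bp past the end, with percentiles of 97.3 and 98.0. Shf, an adaptor with an SH2 domain, had a pair of strong regions in replicate 1. The region at chr2:122348876-122349025 was centred 59 bp inside the end at percentile 97.0, and the other was centred 181 bp past it at percentile 97.3. Ctdsp1, a phosphatase that works with REST to silence neuronal genes outside neurons, had a peak at chr1:74397416-74397565, outside genes and 206 bp past its end in both libraries, with percentiles of 96.7 and 98.2.

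The lowest percentile among the other strong peaks was 94.1, at Pcdhga3 in replicate 2. Vgf, the precursor of secreted neuropeptides, had the same window in both libraries, chr5:137032816-137032965 in its untranslated region, 460 bp inside its end, with percentiles of 97.5 and 96.8. It lay 2190 bp from the nearest TSS, close to the limit of 2 kb, and overlapped coding sequence by 21 bases. Dnajb12, a chaperone of the endoplasmic reticulum, had its peak at chr10:59899616-59899765, 389 bp past the end, in replicate 1, with percentiles of 96.7 and 97.2. The gene a, which encodes the agouti signalling protein of hair pigmentation, had a peak at chr2:155050796-155050945, 141 bp inside its end, in replicate 1, with percentiles of 96.7 and 97.03. Acvrl1, whose sequence is printed above, was the only one of these 10 peaks with the CTCF core. Pcdhga3, a clustered protocadherin on chromosome 18, had a peak 318 bp past its end in replicate 1. The ends of many genes in that cluster nearly coincide, so the assignment to this gene over its neighbours carries no weight. Bcan, which encodes the brain proteoglycan brevican, had a region at chr3:87987156-87987305, 300 bp past the end, and another 260 bp inside it in replicate 1, with percentiles of 96.0 and 93.4. All 10 genes had a promoter peak in both libraries. Of all 653 genes with a shared end peak, 86.2% had a promoter peak in replicate 1 and 85.5% in replicate 2.

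Apart from Mafa, Shf, Ctdsp1 and Bcan, the most regions by the naming rule were at Sncb. Sncb encodes the presynaptic protein beta-synuclein, and its regions lay 309 bp past the end and 391 bp inside it in replicate 1, with percentiles of 94.8 and 48.1. The 3 regions of Mafa were centred 499 and 139 bp past the end and 261 bp inside it, with percentiles of 40.4, 67.1 and 73.3 in replicate 1.

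For the spinal factors and the forebrain and midbrain regulators, the end peaks given here are the highest-ranked shared ones of each list. Their high ranks follow from that choice and do not describe these classes of genes. Over all gene ends, shared peaks had median percentiles of 70.6 in replicate 1 and 61.5 in replicate 2. Percentiles here and below are those of replicate 1 and then of replicate 2. Lhx5, a LIM homeodomain factor of spinal interneurons, had the strongest of the spinal factors, at chr5:120440856-120441005 in its untranslated region, 292 bp inside its end in both libraries, with percentiles of 93.4 and 90.6. Isl2, a factor of motor neurons, followed with a peak 171 bp past its end in both libraries at 86.4 and 84.6. En1, which marks V1 interneurons, had a peak 79 bp past the end in replicate 1, with percentiles of 76.9 and 71.4. The forebrain and midbrain list was led by Dlx2, with percentiles of 85.0 and 84.6, Dmrta2, with 79.2 and 72.9, and Otx1, with 75.7 and 76.4. Dlx2 acts in ventral forebrain, Dmrta2 in the patterning of the cortex and Otx1 in forebrain and midbrain.

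Among progenitor and dorsoventral factors, Sox4, a factor of neuronal differentiation, had a peak 188 bp past its end in replicate 1, with percentiles of 90.8 and 86.5. Nr2f2, a nuclear receptor, had percentiles of 73.9 and 57.5, and Msi1, an RNA-binding protein of neural stem cells, 63.9 and 52.6. Olig2, needed for motor neuron progenitors, had a peak 434 bp past the end in replicate 1, at 75.7 and 56.0. Of the dorsal factors, the homeodomain gene Msx1 had percentiles of 73.9 and 67.0, and Msx2 had 73.3 and 60.3. Of the neuronal genes, Ebf1 had 92.7 and 85.4, and Slc32a1, the vesicular transporter of GABA and glycine, had 63.1 and 58.9. Hox genes set position along the body axis, and the 3 with a shared end peak were Hoxd4, with 84.0 and 65.0, Hoxc4, with 75.7 and 54.4, and Hoxd12, with 72.6 and 46.8. Hox genes lie in compact clusters, and the Hoxd12 peak lay only 2026 bp from the nearest TSS.

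Genes of other tissues had end peaks over a wide range of ranks. Myod1, the regulator of skeletal muscle, had percentiles of 80.9 and 72.9, and its peak lay 72 bp past the end in both libraries. Uncx, a factor of the somites, had 72.6 and 68.0, and Foxc2, a factor of mesenchyme, had 79.8 and 58.9. The other genes of that list with a shared end peak, named after their values were seen, were the muscle factor Myog and the skeletal factor Nkx3-2. The neural crest genes Sox8 and Twist1 had 63.9 and 57.5 and 69.3 and 33.9, and Sox17, an endothelial factor, had 63.9 and 46.8. Rag1, which recombines antigen receptor genes in lymphocytes, had percentiles of 28.8 and 16.2, and no promoter peak in either library. Tubb5, a tubulin, had 67.1 and 58.9, and Rps15a, a protein of the small ribosomal subunit, 36.8 and 21.9. In the large families, the leading end peaks were at Zfp653, with 91.4 and 88.1, at Zfp385a, with 88.1 and 76.4, and at Zfp385c, with 82.0 and 81.5. Olfr750 had 86.4 and 75.7, Olfr90 79.8 and 76.4, and Olfr1034 11.4 and 31.0, and these 3 olfactory receptor genes had no promoter peak in either library, as is usual in a family where 15 of 1128 had one in both. The others in these families, likewise named after the fact, were Zfp36, Zfp729a, Olfr1254 and Olfr560. Some end peaks given above were centred past the end but within another annotated gene in replicate 1. Those of Sox4, Hoxd4, Foxc2, Rag1, Zfp653 and Olfr1034 lay in an intron, and that of Zfp385c in an untranslated region.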

How the data were processed

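DNase-seq peaks and hotspots were analysed for 2 replicate libraries of 1 group. Per the file headers, the authors called both in each library alone on mm10; no source used here names the aligner, caller or threshold. Each peak has a deposited score in whole numbers, used only as a mid-rank percentile within its list. Each hotspot has a deposited −log10 q-value; only hotspot positions were used. The files hold no read counts, so depth is unknown. Repeated positions were removed (45 in replicate 1, 22 in replicate 2).

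Gene ends, TSSs and coding sequence came from GENCODE vM21 on GRCm38.p6, the same assembly as mm10. Python 3.11.15, numpy 2.4.6, pandas 2.3.3, scipy 1.17.1 and matplotlib 3.10.9 were used. The density and sharing steps were tested on simulated data. Windows without a peak were taken every 170 bp at gene ends. No p-value was computed. A total of 22 motifs were searched as consensus letters on both strands, and those not reported in the text are not used here.

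The rule named the 10 genes with the highest mean percentile of shared end peaks, up to 5 with the most shared regions, up to 3 per list, 4 peaks with the CTCF core for their sequence (off chromosome 18), and strong peaks absent from the other library, of which there were none; Lag3 was named after its values were seen. A gene that the rule named is not reported here. Members, lists and motifs were chosen with earlier results of these data known.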

Additional observations from a re-analysis of the deposited data

How the results depend on the processing

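No paired analysis was possible because there was 1 group and no comparison between groups. Results were recomputed under other settings as the mean of both libraries: the ratio of peak density at ends to that past them (0.994), the difference in percentage points of sharing (−1.28) and of median score percentile (−0.381) between peaks at ends and peaks past them, the ratio of their CTCF core shares (0.930), the number of peaks at ends (1303.5) and the genes with a shared end peak (653). With a window of 250 bp the density ratio was 0.846, the sharing difference −0.359 and the CTCF ratio 0.882, with 575 peaks and 287 genes. With 1 kb the density ratio was 1.06 and the CTCF ratio 0.909, with 2635.5 peaks and 1219 genes. With 5 kb from every TSS the density ratio was 0.899, the sharing difference 0.611 and the CTCF ratio 0.997, with 660 peaks and 345 genes. With gene starts alone as TSSs the CTCF ratio was 0.946. Among peaks above the median score the sharing difference was −3.65 and the CTCF ratio 0.957, with 676 peaks. With the ends of all coding transcripts the sharing difference was −0.349 and the CTCF ratio 0.913. Against 5 kb to 500 bp inside the gene the density ratio was 1.22. The cause of these shifts was not tested. The difference in score percentile ran from −1.93 to 1.20 over its 12 alternatives, about as wide as the gap between the libraries. With 1 library at a time the density ratio was 0.980 to 1.01, the sharing difference −1.92 to −0.638, the CTCF ratio 0.919 to 0.941, the percentile difference −1.93 to 1.17 and the number of peaks 1135 to 1472; a shared gene needs both libraries and has no such value. Distance from RefSeq starts, a table with no chromosome 18 here, was added after seeing the data, as were the steps of 50 bp, the GC zones, the classes of gene ends and the classes of surrounding density. Unknown depth limits what the absence of a peak can mean.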
